A study of Mus musculus with 6 samples.

Results

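The nuclear genes for subunits of the respiratory chain were followed through neural tube organoids grown from mouse embryonic stem cells. Members were chosen by symbol alone: every Nduf a, b, c, s or v gene, the 4 Sdh genes, every Uqcr gene, Cox4 to Cox8 and every Atp5 gene that the gene lists of both deposited tables hold, leaving out pseudogene symbols. This gave 79 of 17296 shared symbols, with 37 in complex I, 4 in complex II, 8 in complex III, 16 in complex IV and 14 in complex V. The complex is the one the symbol names, so Ndufa4, now known as a subunit of complex IV, and its paralogue Ndufa4l2 are counted under complex I. The rule uses no measured value, though it was set with earlier results of these data known.

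All libraries came from 1 stem cell line, Sox1::eGFP;Bra::mCherry mESCs, which carries a green reporter of the neural factor Sox1 and a red reporter of Brachyury. Cells grew in Matrigel drops, with bFGF (a fibroblast growth factor) and activin-A in the medium for the first days only. Organoids without elongation gave 1 library at day 6, and elongated ones gave 2 at day 6 (replicate 1 from batch 1, replicate 2 from batch 2) and 1 each at days 7, 8 and 10. Organoids kept past day 6 were freed from their drop and embedded again singly, so age and this step cannot be told apart. The comparisons ask how the non-elongated state, and each later day, differ from elongated day 6.

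The respiratory chain passes electrons from NADH and succinate to oxygen through complexes I to IV, pumps protons across the inner mitochondrial membrane, and lets them flow back through complex V, the ATP synthase. Complexes I, III, IV and V mix subunits from the nucleus with a few made from mitochondrial DNA, while complex II is wholly nuclear. Several subunits of complex IV exist as a widely used form and a tissue-restricted or stress-related form. In mammals the alternative forms Cox4i2 and Ndufa4l2 are known as genes induced by low oxygen, and Cox6b2 as a form first described in testis.

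Each library held 2076 to 3677 cells with a median of 22053 to 59014 UMIs (unique molecules) per cell. Values are sums over the cells of a library, in which fewer cells of a type and less RNA per cell cannot be told apart. The members took 2.67% of UMIs in the non-elongated library, 2.49% and 2.75% in elongated replicates 1 and 2 at day 6, 2.73% at day 7, 3.07% at day 8 and 3.24% at day 10. Day 8 and day 10 lay above both day 6 replicates, and day 7 lay between them. In this share the total is all UMIs of shared symbols. With TMM scaling (trimmed mean of M values), used for every fold change below, the same sums came to 2.84% for non-elongated, 2.61% and 2.94% for the elongated replicates, 2.67% at day 7, 2.96% at day 8 and 2.88% at day 10. On that scale only the day 8 library stood above both replicates, so the order of the later days rests on the scaling. The 13 mitochondrially encoded subunit genes took 5.25% of UMIs in the non-elongated library, against 5.25% and 4.20% in the elongated replicates, and 4.47%, 5.41% and 5.83% at days 7, 8 and 10.

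**Figure D1:**
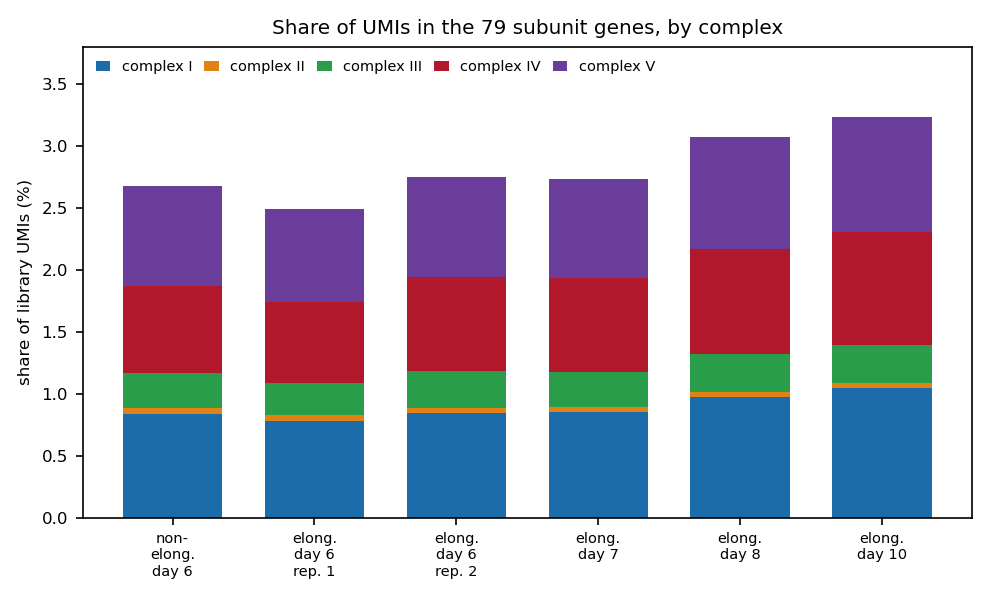
Share of each library's UMIs (%, y axis, from 0) that fell in the 79 subunit genes, stacked by complex, for the non-elongated day 6 library, the 2 elongated day 6 libraries and elongated days 7, 8 and 10. The total is 2.67% in the non-elongated library and runs from 2.49% to 3.24% in the elongated ones, and complexes I, IV and V make up most of every bar.

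Promoters of 65 of the 79 members were found in the RefSeq table for GRCm38.p6, which runs from 250 bases before to 50 bases after each start. They were searched on both strands for 3 sequences known from mammalian promoters of respiratory genes. The NRF1 sequence, a target of nuclear respiratory factor 1 that is its own reverse complement and is spelled out in capitals in the first windows below, was in 5 members (7.69% of 65), against 1.07% of all 27025 promoters. The YY1 sequence AAGATGGCG was in 7 members (10.8%), against 1.64% of all promoters, and the ETS sequence CCGGAAGT was in 5 (7.69%), against 4.31%. The members' promoters thus held the first and second of these more often than promoters at large, as a count of letters and not of bound factors. The windows below show the NRF1 letters in capitals. They are shown because they occur both in Cox6a1, which rose by day 10, and in Uqcrc1, which did not pass the edgeR test used below. Each window is 30 bases long and on the gene's own strand.
Cox6a1, chr5:115349101-115349130, minus strand: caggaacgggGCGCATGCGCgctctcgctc
Uqcrc1, chr9:108936668-108936697, plus strand: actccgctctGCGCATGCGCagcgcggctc
Atp5g2, chr15:102671070-102671099, minus strand: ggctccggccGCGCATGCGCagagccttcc
Atp5k, chr5:108434430-108434459, minus strand: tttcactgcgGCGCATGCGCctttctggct
Ndufa11, chr17:56717692-56717721, plus strand: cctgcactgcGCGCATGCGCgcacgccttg
The first motif base lies 162 bases before the start in Cox6a1, 60 before in Ndufa11, 50 before in Atp5k and 42 before in Atp5g2, and at base 31 after it in Uqcrc1.

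The YY1 letters, again in capitals and on the gene's own strand, sat after the start in 6 of the 7 members that hold them, and 88 bases before it in Atp5j. They are shown because the letters include an ATG, and 5 of the 7 genes encode complex I subunits.
Ndufa9, chr6:126849096-126849125, minus strand: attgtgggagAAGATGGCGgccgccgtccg
Ndufc1, chr3:51408914-51408943, minus strand: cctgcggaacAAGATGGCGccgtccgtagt
Ndufs4, chr13:114388045-114388074, minus strand: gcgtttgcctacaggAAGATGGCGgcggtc
Ndufs6, chr13:73328433-73328462, minus strand: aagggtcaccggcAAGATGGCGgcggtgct
Ndufs7, chr10:80249463-80249492, plus strand: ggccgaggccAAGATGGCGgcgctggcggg
Atp5j2, chr5:145191499-145191528, minus strand: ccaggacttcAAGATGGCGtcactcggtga
Atp5j, chr16:84835045-84835074, minus strand: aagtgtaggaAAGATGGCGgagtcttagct

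Over time, 2 alternative forms of otherwise steady subunits fell steeply: Cox4i2 and Ndufa4l2 were lower at days 7, 8 and 10 than in both elongated day 6 libraries. Cox6b2 was lower at days 7 and 8. Cox6a1 and Atp5l rose by day 10. In each of these comparisons every other member had a false discovery rate (FDR) of 0.05 or more. The levels that follow are TMM-scaled CPM, which set a gene's UMIs against the size of its library. Fold changes and FDRs are from edgeR's quasi-likelihood test, in which only the day 6 replicates give a spread.

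At day 7, 3 members were lower and 0 higher, while 3.99% of all 16379 genes tested were called (1.9% higher, 2.09% lower). At day 8 the same 3 members were lower and 0 higher, against 13.4% of all genes called (6.74% higher, 6.64% lower). At day 10, 2 members were higher and 2 lower, against 26.4% of all genes (14.1% higher, 12.3% lower). The members' share of calls thus lay near the background at day 7 and below it at days 8 and 10. The median log2 fold change of the members was -0.07 at day 7, 0.05 at day 8 and 0.01 at day 10. Over all genes it was -0.01, -0.00 and -0.01. At day 7, 11 members lay above both replicates and 36 below both, where 38.5% of all genes lay above and 38.6% below. At day 8 there were 33 above and 24 below (41.2% and 40.9% of all genes), and at day 10 there were 32 above and 32 below (43.5% and 43%). More than 2-fold from both replicates were 3 members at day 7 (14.5% of all genes), 4 at day 8 (22.9%) and 3 at day 10 (31%).

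Other methods moved these counts. DESeq2 called 1 member higher at day 8, against 6.61% of all genes, and 6 lower at day 10, against 13.3%. Those 6 include Cox6b2, Sdhd and Uqcrc1, which edgeR did not call at day 10. With scaling by library size alone, 4 were higher at day 10, against 18.3%.

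**Figure D2:**
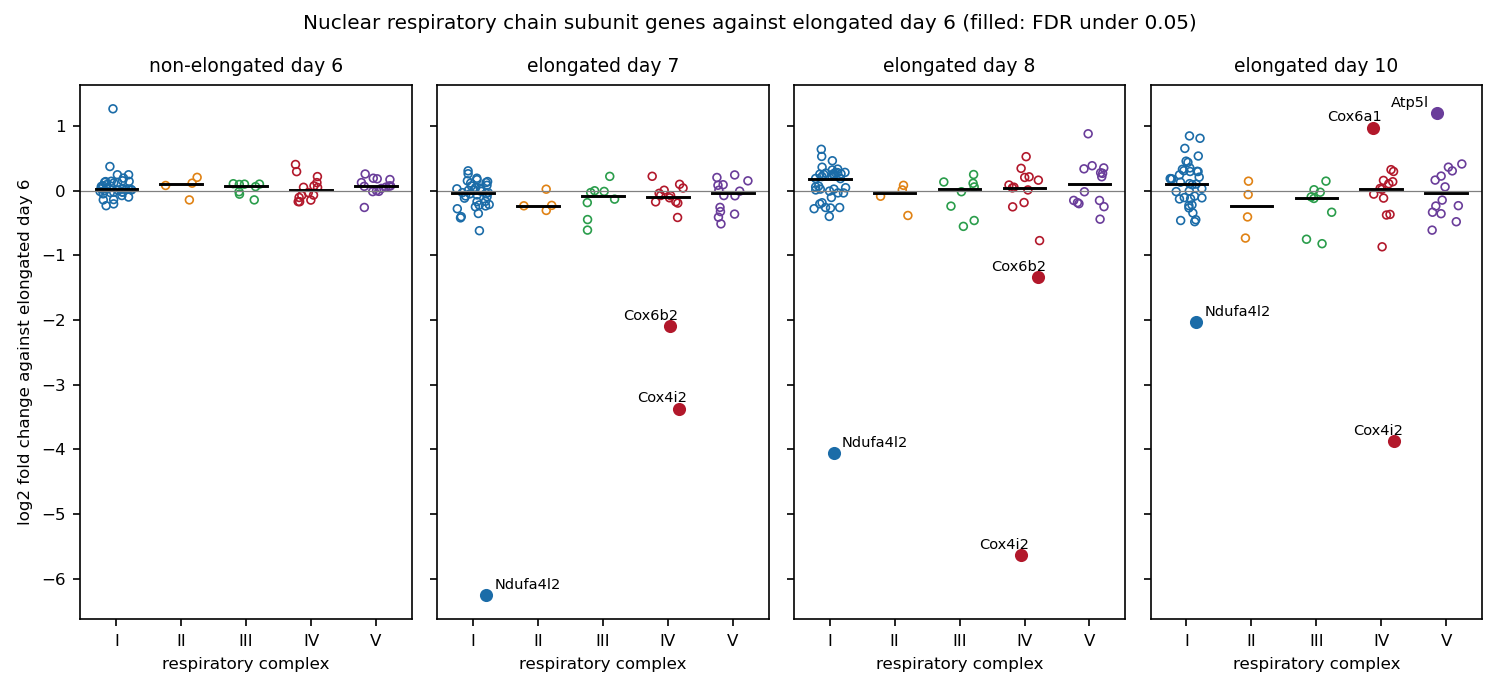
Log2 fold change against elongated day 6 (y axis) of 77 members by complex (x axis), in non-elongated day 6 and elongated days 7, 8 and 10. Filled, named points had an edgeR FDR under 0.05, black lines are medians per complex, and 2 members under 20 UMIs in every library are not drawn. Most points lie near 0 in all 4 panels and Ndufa4l2 and Cox4i2 stand far below from day 7.

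Cox4i2 is the alternative form of subunit 4 of cytochrome c oxidase (complex IV; chromosome 2, 152754173 to 152765037, GRCm38). It measured 18.5 and 6.78 CPM in elongated day 6 replicates 1 and 2, 1.22 CPM at day 7, 0.252 CPM at day 8 and 0.861 CPM at day 10. Every later library was below both replicates, which themselves differed by 1.45 on the log2 scale. The log2 fold change was -3.37 ± 0.67 (SE; edgeR FDR 0.0380) at day 7, -5.64 ± 0.78 (FDR 0.00440) at day 8 and -3.87 ± 0.70 (FDR 0.00734) at day 10. The day 7 call was lost with a minimum count of 100, with every gene kept, in neural progenitors alone, and in cells within the filter range of the smaller table (edgeR FDR up to 0.104). The usual form Cox4i1 (chromosome 8, 120668222 to 120674207) measured 912 and 1014 CPM at day 6, 891 CPM at day 7, 1116 CPM at day 8 and 1182 CPM at day 10. Cox4i2 therefore made up 1.99% and 0.664% of the UMIs of the pair at day 6, 0.137% at day 7, 0.0226% at day 8 and 0.0728% at day 10. UMIs count 3 prime ends once per molecule and are not divided by transcript length.

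Ndufa4l2 encodes a mitochondrial paralogue of Ndufa4 (chromosome 10, 127514967 to 127517154). It measured 11.3 and 9.09 CPM in the elongated day 6 replicates, 0.133 CPM at day 7, 0.614 CPM at day 8 and 2.48 CPM at day 10. The groups did not overlap, and the lowest library was day 7, with 18 UMIs of this gene. The log2 fold change was -6.25 ± 0.50 (edgeR FDR 0.00355) at day 7, -4.05 ± 0.43 (FDR 0.00173) at day 8 and -2.04 ± 0.38 (FDR 0.00846) at day 10. Ndufa4 itself (chromosome 6, 11900292 to 11907497) stayed between 796 CPM at day 10 and 874 CPM in replicate 1.

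Cox6b2, a form of the intermembrane subunit 6b (chromosome 7, 4751792 to 4753094), measured 47.3 and 38.1 CPM at day 6, 10.0 CPM at day 7, 16.8 CPM at day 8 and 23.4 CPM at day 10. All 3 later libraries were below both replicates. The log2 fold change was -2.09 ± 0.31 (edgeR FDR 0.0143) at day 7, -1.34 ± 0.30 (FDR 0.0260) at day 8 and -0.87 ± 0.29 (FDR 0.0637) at day 10. Of the UMIs in Cox6b1 and Cox6b2 together, Cox6b2 held 7.73% and 5.12% at day 6, 1.51% at day 7, 2.31% at day 8 and 3.24% at day 10. Cox6b1 measured 565 and 706 CPM at day 6 and 653, 710 and 698 CPM at days 7, 8 and 10, with no call.

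Cox6a1, the widely used form of subunit 6a, carries the NRF1 letters shown above (chromosome 5, 115345642 to 115348981). Its level was 206 and 229 CPM in the day 6 replicates, 206 CPM at day 7, 313 CPM at day 8 and 427 CPM at day 10. Days 8 and 10 stood above both replicates, with a log2 fold change of 0.52 ± 0.25 (edgeR FDR 0.209) at day 8 and 0.97 ± 0.25 (FDR 0.0260) at day 10. Its partner Cox6a2, the heart and skeletal muscle form, had 0 and 17 UMIs at day 6, 0 at day 7, 3 at day 8 and 0 at day 10, and no fold is given.

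Atp5l, subunit g in the membrane part of ATP synthase (chromosome 9, 44912557 to 44920742), rose most among the members at day 10. It measured 268 and 386 CPM at day 6, 348 CPM at day 7, 601 CPM at day 8 and 748 CPM at day 10. Days 8 and 10 exceeded both replicates. The log2 fold change was 0.88 ± 0.29 (edgeR FDR 0.0870) at day 8 and 1.19 ± 0.29 (FDR 0.0213) at day 10. In cells within the filter range of the smaller table the day 10 call was lost (edgeR FDR 0.0525). The gene lists hold 2 pseudogene symbols of Atp5l, so reads of near-identical copies may have been split, and its level is uncertain to that extent.

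**Figure D3:**
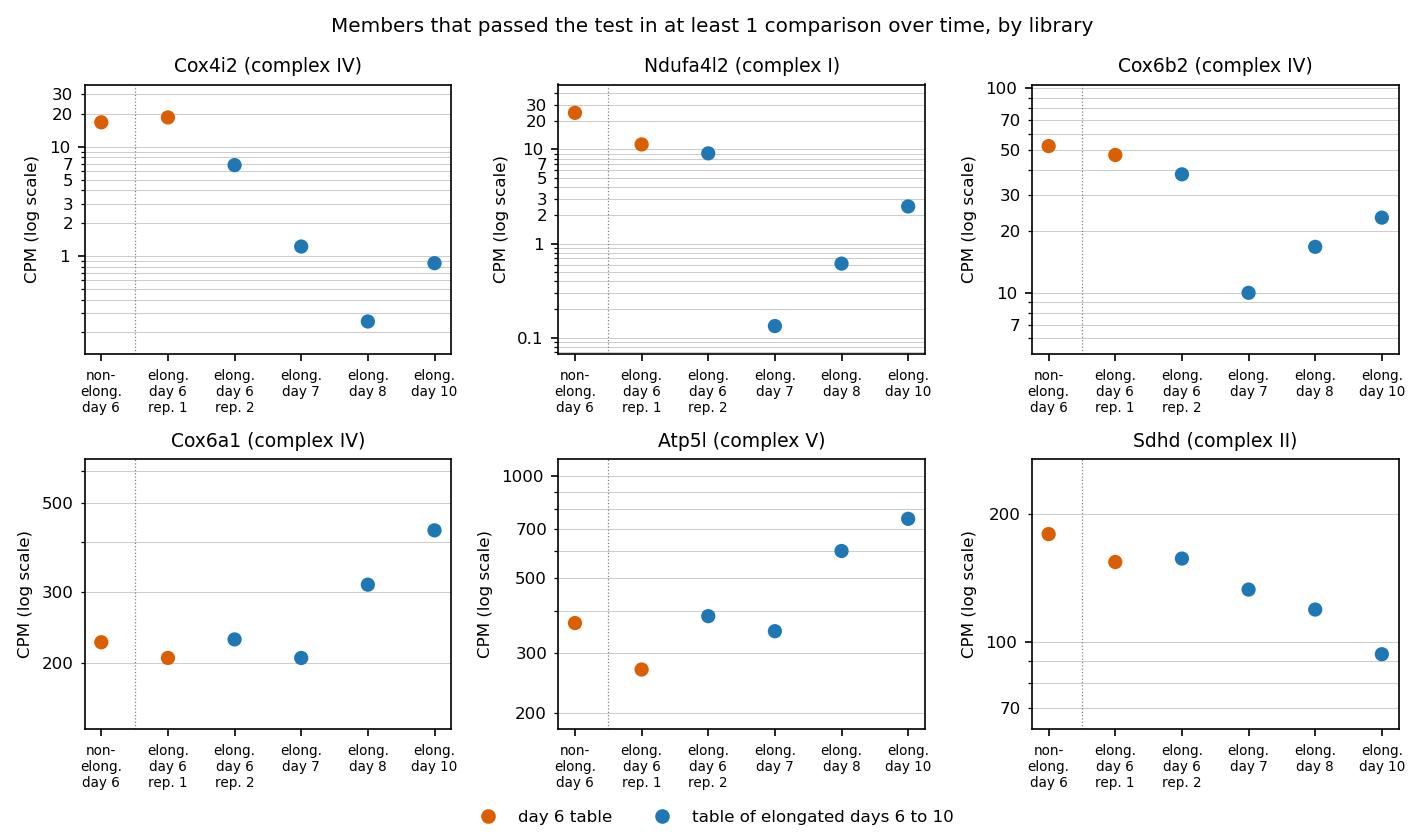
CPM (log axis) in each of the 6 libraries for the 6 members that passed the test in a comparison over time or in the slope over days, with colours for the 2 deposited tables. Cox4i2 and Ndufa4l2 drop after day 6, Cox6b2 is lowest at day 7, and Cox6a1 and Atp5l climb at days 8 and 10 while Sdhd declines.

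A slope over day, fitted to the 5 elongated libraries, called 2 members higher and 1 lower, against 23.8% of 15775 genes (11.3% higher, 12.5% lower). DESeq2 gave 4 members higher and 5 lower (17.7% and 20.4% of all genes), and library size alone 8 higher and 0 lower (15.5% and 8.35%). The test covered 77 members, since Cox6a2 and Cox7b2 were too low. Cox6a1 rose by 0.26 ± 0.05 log2 units per day (edgeR FDR 0.0203) and Atp5l by 0.32 ± 0.07 (FDR 0.0268). Sdhd, a membrane anchor of succinate dehydrogenase (complex II), measured 154 and 157 CPM at day 6, 133 CPM at day 7, 119 CPM at day 8 and 93.5 CPM at day 10. Its slope was -0.18 ± 0.04 log2 units per day (FDR 0.0213), and each later library was below both replicates. Without replicate 1 the test called Sdhd alone of the members, with 1723 genes in all, and without replicate 2 it called 0 genes.

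The lowest members of complexes II, III and V at day 10 missed the edgeR test, though DESeq2 called Uqcrc1 and Sdhd lower. Uqcrc1 and Uqcrc2, the large core proteins of complex III, measured 89.2 and 113 CPM at day 10, against 179 and 136 CPM (Uqcrc1) and 214 and 167 CPM (Uqcrc2) in the day 6 replicates. Day 10 was below both replicates for each (Uqcrc2 was named after its values were seen). Their log2 fold changes were -0.82 ± 0.29 (edgeR FDR 0.0761) and -0.75 ± 0.29 (FDR 0.0913). Sdhd at day 10 gave -0.73 ± 0.26 (FDR 0.0754). Atp5b, the catalytic beta subunit in the head of ATP synthase, measured 632 CPM at day 10, against 1013 and 917 CPM at day 6 (log2 fold change -0.61 ± 0.25, FDR 0.110). Sorted by role after these values had been seen, the median at day 10 was -0.75 for the 3 core and Rieske proteins of complex III, -0.34 for the 5 head subunits of ATP synthase and -0.13 for the 7 nuclear core subunits of complex I. For the 44 other members of complexes I, III and V, which include the called Atp5l and Ndufa4l2, it was 0.14. Signs were mixed within most kinds: the core of complex I ran from -0.46 to 0.53, the head of ATP synthase from -0.61 to 0.41, and of the 44 others 25 lay above both replicates and 13 below both. With library size alone these medians were -0.50, -0.08, 0.12 and 0.39, and the sign for the core of complex I changed.

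Ndufa3, a small accessory subunit of complex I, was the highest of its complex at day 10, with 168 CPM against 66.8 and 121 CPM at day 6 (log2 fold change 0.84 ± 0.36, edgeR FDR 0.123). Ndufs6, which sits beside the NADH-oxidising module, was the lowest of the complex I members that averaged 20 CPM or more, with 238 CPM at day 10 against 312 and 353 CPM (-0.48 ± 0.26, FDR 0.207). The highest of complexes II and III were close to no change: Sdhb, the iron-sulfur subunit, had 150 CPM at day 10 against 149 and 123 CPM, and Uqcrq had 466 CPM against 368 and 474 CPM. Sdhb was just above both replicates and Uqcrq lay between them. Medians by complex at day 10 were 0.11 for I, -0.23 for II, -0.11 for III, -0.02 for IV and -0.04 for V. With scaling by library size alone, where the median of all genes shifted to 0.24, they were 0.36, 0.02, 0.14, 0.24 and 0.21, so the signs for complexes II to V depend on the scaling.

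No other paired form was called. The c ring of ATP synthase is encoded by 3 genes for the same mature protein: Atp5g2 held 56.2% and 59.0% of their UMIs at day 6, and 56.8%, 56.5% and 56.2% at days 7, 8 and 10. Atp5g1 held 28.2% and 25.5% at day 6 and 21.9% at day 10, and Atp5g3 held 15.6% and 15.5% at day 6 and 22.0% at day 10, with neither called. Cox7a1, the muscle form of subunit 7a, stayed between 3.81 CPM (day 8) and 8.35 CPM (replicate 2), beside 510 to 627 CPM of Cox7a2 and 308 to 372 CPM of Cox7a2l in the elongated libraries. Cox7b2 had at most 14 UMIs in any library and is given no fold, beside 29126 to 77163 UMIs of Cox7b. Cox8a was the only subunit 8 form among the members.

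The most abundant member of each complex, by its mean over libraries, is named by rule. Cox6c (complex IV) measured 858 and 1295 CPM in the elongated day 6 replicates and 1347 CPM at day 10. Uqcrh, the hinge protein of complex III, measured 665 and 735 CPM at day 6 and 654 CPM at day 10, and Atp5g2 measured 1145 and 1429 CPM at day 6 and 1095 CPM at day 10. None of the 3 was called, and only Cox6c lay above both replicates at day 10, while Uqcrh and Atp5g2 lay below both. Pseudogene symbols of Uqcrh stand in the gene lists too, and 1 of Atp5k, so both levels carry the same uncertainty as that of Atp5l.

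In non-elongated organoids no member passed the edgeR test against elongated day 6. No gene of 16379 did either (0% called; 1137 genes and 1 member had an unadjusted p under 0.05), while DESeq2 called 129 genes (0.788%) and 0 members. Ndufa4l2 was that member, at 24.5 CPM in non-elongated organoids and 11.3 and 9.09 CPM in the elongated replicates. It was the only member over 2-fold from both replicates, against 7.47% of all genes, with a log2 fold change of 1.26 ± 0.33 (edgeR FDR 0.399). Cox4i2 measured 16.7 CPM in non-elongated organoids, inside the range of the replicates, and Cox6b2 52.3 CPM, above their 47.3 and 38.1 CPM. Members lay above both replicates in 27 cases and below both in 5, where 34.2% of all genes lay above and 33.8% below.

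The other members that were highest or lowest of their complex in this comparison differed little from elongated organoids. Atp5k, the small subunit e of ATP synthase, had 383 CPM in non-elongated organoids against 268 and 373 CPM, and Atp5h, of its peripheral stalk, had 629 CPM against 654 and 854 CPM. Uqcr10 had 427 CPM against 359 and 583 CPM, and Cox7b had 420 CPM against 401 and 546 CPM. Uqcr10 and Cox7b lay between the replicates. Ndufa3 had 79.8 CPM against 66.8 and 121 CPM, Sdhc 83.7 CPM against 90.8 and 94.2 CPM, Sdhd 179 CPM against 154 and 157 CPM, and Uqcrc1 170 CPM against 179 and 136 CPM. Across all members the replicates differed by a median of 0.14 (replicate 2 over replicate 1, log2), which exceeds the median of 0.05 for non-elongated over elongated. Only Cox4i2 and Cox6a2 differed over 2-fold between the replicates, against 11.4% of all genes.

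The replicates also differ in batch and in the table they came from, and the tables passed different cell filters and carry different symbol versions. Every FDR holds these differences. The non-elongated library shares its table with replicate 1, and days 7, 8 and 10 share theirs with replicate 2. Against the replicate of the same table, the members' median log2 difference was 0.12 for non-elongated and -0.17, 0.01 and -0.04 at days 7, 8 and 10. Against the other replicate it was -0.02 for non-elongated and 0.012, 0.145 and 0.058 at days 7, 8 and 10. Markers of other cells moved as well: the summed level of 7 surface ectoderm and epithelial markers was 960 CPM in non-elongated organoids, 268 and 137 CPM in elongated day 6 organoids, and at most 46.6 CPM from day 7, with Trp63 at 0 in elongated replicate 1 and at days 8 and 10. The 5 epiblast markers summed to 487 CPM in non-elongated organoids, against 207 and 212 CPM, and to 33.7, 16.2 and 8.91 CPM at days 7, 8 and 10, with Utf1 at 0 at day 10. The 6 neural progenitor markers summed to 232 CPM in non-elongated organoids and to 440 and 509 CPM in elongated day 6 organoids. At days 7, 8 and 10 they summed to 706, 929 and 582 CPM. Within that list Nes and Hes5 were called higher at days 7, 8 and 10, while Sox3 was called lower at days 7 and 10 and Sox1 at day 10. The 6 neuron markers summed to 175 and 184 CPM at day 6 and 144, 723 and 2368 CPM at days 7, 8 and 10. At day 7 only Stmn2 lay below both replicates (42.4 CPM against 144 and 159 CPM), and the other 5 neuron markers lay above both. The part of these markers in the members' differences was not tested beyond the class values below.

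Within the authors' mid/hindbrain class, the class followed over time here, Cox4i2 and Ndufa4l2 also dropped. The spinal cord class already had little Ndufa4l2 at day 6, as given below, and its later values are not given. In the mid/hindbrain class, Cox4i2 measured 6.53 CPM in day 6 replicate 2 (95% counting interval 6.11 to 6.97), 1.37 CPM at day 7 (149 UMIs), 0.242 CPM at day 8 (0.138 to 0.393) and 0.835 CPM at day 10 (0.535 to 1.24). Ndufa4l2 in the same class measured 8.97 CPM (8.48 to 9.49), 0.0550 CPM (0.0202 to 0.120), 0.106 CPM (0.0426 to 0.218) and 1.04 CPM (0.704 to 1.49). Those 4 libraries share a table and a class name, and the later intervals lie below that of day 6. Class values are CPM without TMM factors, intervals cover counting error only, and the classes were made from expression of the same cells, so they are described and not tested.

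At day 6 these forms differed between classes. Ndufa4l2 was low in the spinal cord class, with 1.18 CPM in elongated replicate 1 and 0.671 CPM in replicate 2, while the other classes of at least 50 cells had 10.8 to 17.2 CPM in replicate 1 and 8.97 and 11.1 CPM in replicate 2. Among non-elongated cells it measured 5.67 CPM in spinal cord and 32.7 CPM in hindbrain, where elongated replicate 1 had 10.8 CPM. Cox4i2 was highest in the midbrain class, at 32.8 CPM in non-elongated organoids and 32.4 CPM in replicate 1. Cox6b2 reached 98.0 CPM in midbrain and 86.0 CPM in anterior epiblast cells of non-elongated organoids, against 58.8 and 75.5 CPM in the same classes of replicate 1. The spinal cord class had the least Cox6b2 in all 3 day 6 libraries, with 22.9 CPM in the non-elongated one and 31.3 and 21.8 CPM in the elongated replicates.

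Late in the series, Ndufa4l2 was highest in single classes of dorsal interneurons, a pattern picked out after its values were seen. At day 8 the dI3 class (dorsal interneuron 3) held 48 of its 73 UMIs, at 11.9 CPM (8.79 to 15.8). At day 10 the dI1 class had 11.3 CPM (9.16 to 13.7) and dI3 4.95 CPM (3.59 to 6.67), while the mid/hindbrain class had 1.04 CPM. Cox6a1 at day 10 was highest in the dI1, dI3 and dI2 classes, at 633, 560 and 515 CPM. Migratory cranial neural crest cells had 268 CPM. Among classes of at least 50 cells, the lowest Cox6a1 at days 8 and 10 was 268 CPM, and the highest at day 6 was 220 CPM. For Atp5l the classes ran from 579 to 980 CPM at days 8 and 10 and from 219 to 433 CPM in the day 6 libraries. Classes of the same library are not replicates, and the share of all genes that separate in this way was not counted. These values lack TMM factors (0.940 for non-elongated, 1.125 for day 10). Without the factors the median log2 fold change of all genes at day 10 was 0.24.

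**Figure D4:**
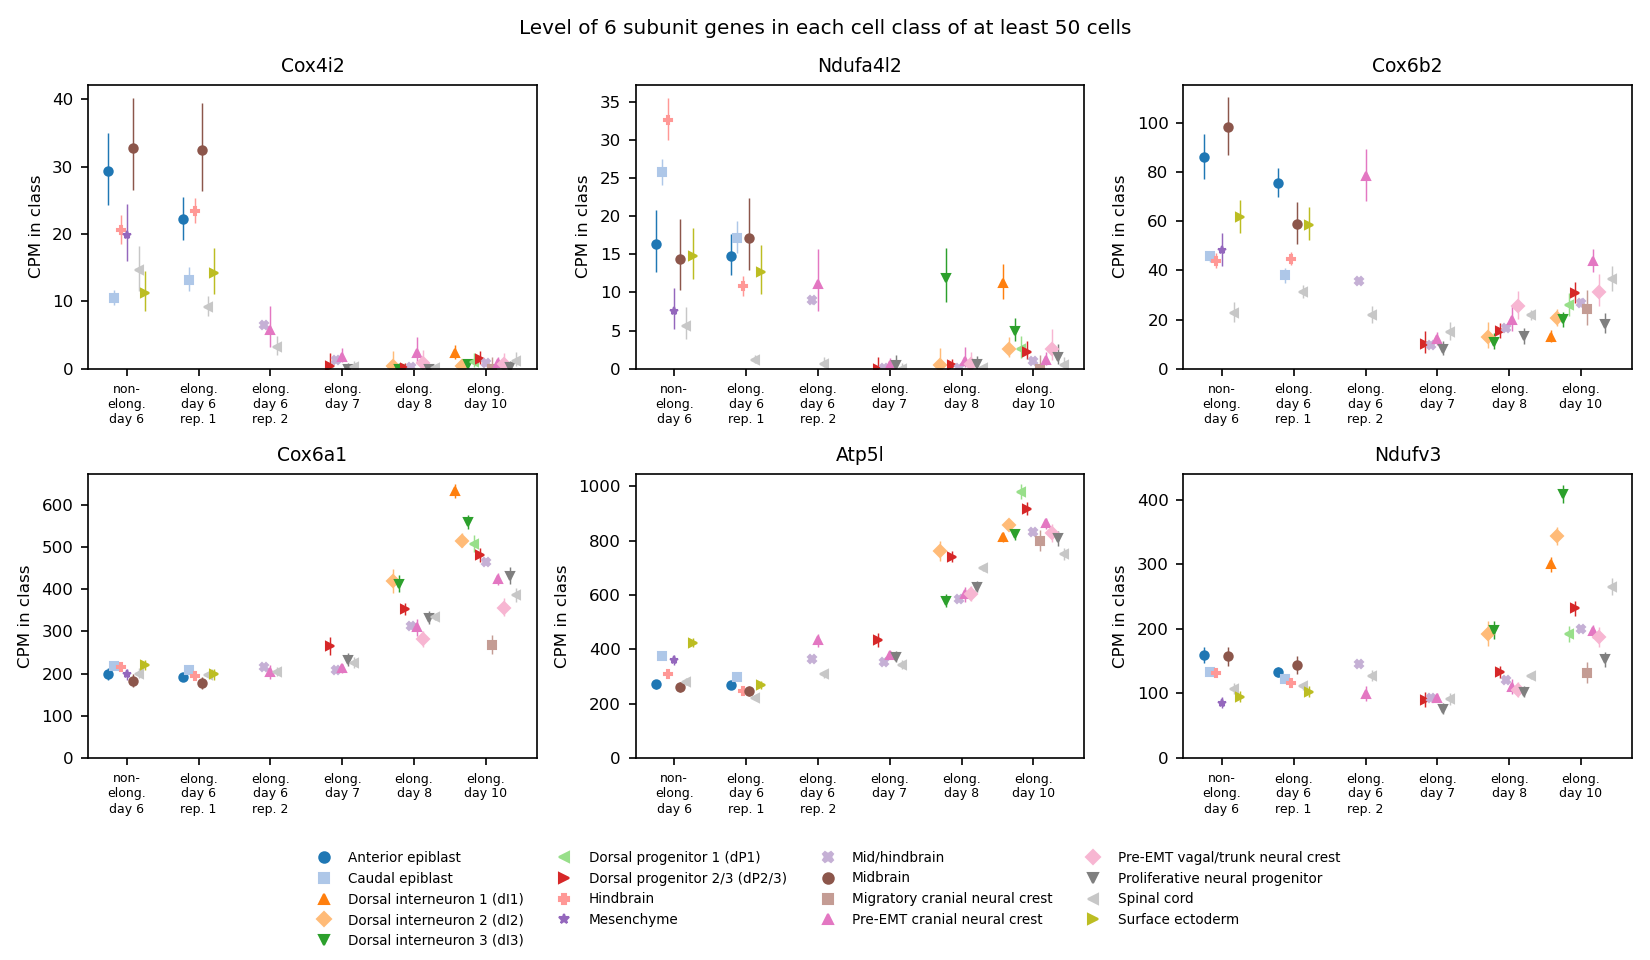
CPM (y axis, from 0) of 6 members in each authors' class of at least 50 cells, by library (x axis); bars are 95% counting intervals and symbols mark the class. Cox4i2 and Ndufa4l2 are near 0 in most classes from day 7, apart from Ndufa4l2 in dI3 at day 8 and dI1 and dI3 at day 10, and Ndufv3 is highest in dorsal interneurons at day 10.

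Among the 74 members at 20 CPM or more in some class at day 10, the median ratio of the highest to the lowest class was 1.42, and 6 exceeded 2. Ndufv3, a flavoprotein-module subunit of complex I, had the second widest range after Cox6b2, with 409 CPM in dI3, 343 CPM in dI2 and 300 CPM in dI1, against 131 CPM in migratory crest. Ndufv3 was named after its values were seen, as were the other wide ones. Sdha, the flavoprotein of complex II, ran the other way, with 50.1 CPM in dI1 and 109 CPM in migratory crest, and Uqcr10 had 320 CPM in dI1 and 672 CPM in pre-EMT cranial crest. Ndufb4 was lowest in dI3 at 269 CPM and highest in pre-EMT cranial crest at 541 CPM.

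Between the highest and lowest class of a library, the members' summed share of UMIs differed 1.06-fold (elongated replicate 2) to 1.17-fold (day 10). It ran from 2.98% to 3.47% over 11 classes at day 10 and from 2.52% to 2.74% over 7 classes in the non-elongated library. In elongated replicate 1 it ran from 2.37% to 2.61% over 6 classes. The day 10 range was wider than the gap between the elongated day 6 replicates over all cells (2.49% and 2.75%). Neurons over progenitors, on log2(CPM + 1), gave a median of 0.06 over the 74 members with at least 20 CPM in the day 10 library and 0.03 over the 73 such members at day 8. None of these differed over 2-fold, where 21.3% and 20.6% of all genes at that level did. Below that level, Ndufa4l2 was higher in neurons at both days, with 6.55 CPM in neurons against 1.33 CPM in progenitors at day 10. At day 8 it had 7.39 against 0.168 CPM, with most of its UMIs in the dI3 class alone. Cox7a1 had 10.8 CPM in neurons against 4.88 CPM in progenitors at day 10, and 4.35 against 3.88 CPM at day 8.

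Other gene lists were set beside the subunit genes at day 10, when 14.1% of all genes were called higher and 12.3% lower. Of 43 assembly factors, which build the complexes without staying in them, 2 rose and 6 fell (median log2 fold change -0.45). Their calls in both directions together were a smaller share than the 26.4% over all genes. Their falls alone were a share slightly above the 12.3%. Sco2, a copper chaperone of complex IV, measured 14.1 CPM at day 10 against 42.6 and 28.2 CPM at day 6 (-1.32 ± 0.35, edgeR FDR 0.0296). Cox20, another complex IV factor, measured 54.0 CPM at day 10 against 26.9 and 29.3 CPM (0.94 ± 0.25, FDR 0.0310). Of 78 mitochondrial ribosomal proteins 16 fell and 0 rose (median -0.55), and of 78 cytosolic ribosomal proteins 35 fell and 0 rose (median -0.72). Of 13 citric acid cycle genes 3 fell and 0 rose. That share lay above the 12.3% of all genes called lower, though below the 26.4% called in either direction. Of the 13 mitochondrially encoded subunits and 8 cytochrome c and carrier genes tested none was called. With library size alone, 4 assembly factors rose and 3 fell, 4 mitochondrial and 12 cytosolic ribosomal proteins fell, 1 mitochondrial ribosomal protein rose and 1 cycle gene fell, while the regulators below had 3 higher and 3 lower.

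Regulators of mitochondrial genes moved in both directions, with 3 of 13 higher and 4 lower at day 10. Ppargc1a, a coactivator known to drive mitochondrial biogenesis, had 1.16 CPM at day 10 against 0.0685 and 0.0425 CPM at day 6 (4.42 ± 0.76, edgeR FDR 0.00607). That change rests on 116 UMIs at day 10 and on 5 and 6 UMIs in day 6 replicates 1 and 2. Tfam, which packages and transcribes mitochondrial DNA, had 53.8 CPM against 107 and 100.4 CPM (-0.94 ± 0.27, FDR 0.0372). Pprc1, a related coactivator, had 8.69 CPM against 40.3 and 39.2 CPM (-2.19 ± 0.30, FDR 0.00253). The factor Nrf1, whose letters are shown in the windows above, had 25.9 CPM against 43.9 and 39.7 CPM and was not called (-0.69 ± 0.27, FDR 0.0973). The 5 members with those letters had log2 fold changes from -0.82 (Uqcrc1) to 0.97 (Cox6a1) at day 10.

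Most glycolysis genes also fell after day 6. Of 16, 11 fell at day 7, 14 at day 8 and 11 at day 10, and 0 rose, with medians of -1.77, -2.54 and -1.42. Ldha, which makes lactate, measured 2506 and 1793 CPM at day 6, 377 CPM at day 7, 133 CPM at day 8 and 649 CPM at day 10. Pdk1, which restrains entry of pyruvate into mitochondria, measured 31.3 and 23.9 CPM at day 6, 2.58 CPM at day 7, 1.65 CPM at day 8 and 17.3 CPM at day 10. Pdk1 did not pass the test at day 10 (log2 fold change -0.67). As for Ndufa4l2, both Ldha and Pdk1 stood higher at day 10 than at day 8. Of the glycolysis list only Gapdh went the other way, with 2047 CPM at day 8 and 1875 CPM at day 10. The lowest library of Ldha and Pdk1 was day 8, while that of Ndufa4l2 was day 7. With library size alone 10 fell and 1 rose at day 10. Whether these genes share a cause with Cox4i2 and Ndufa4l2 was not tested.

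**Figure D5:**
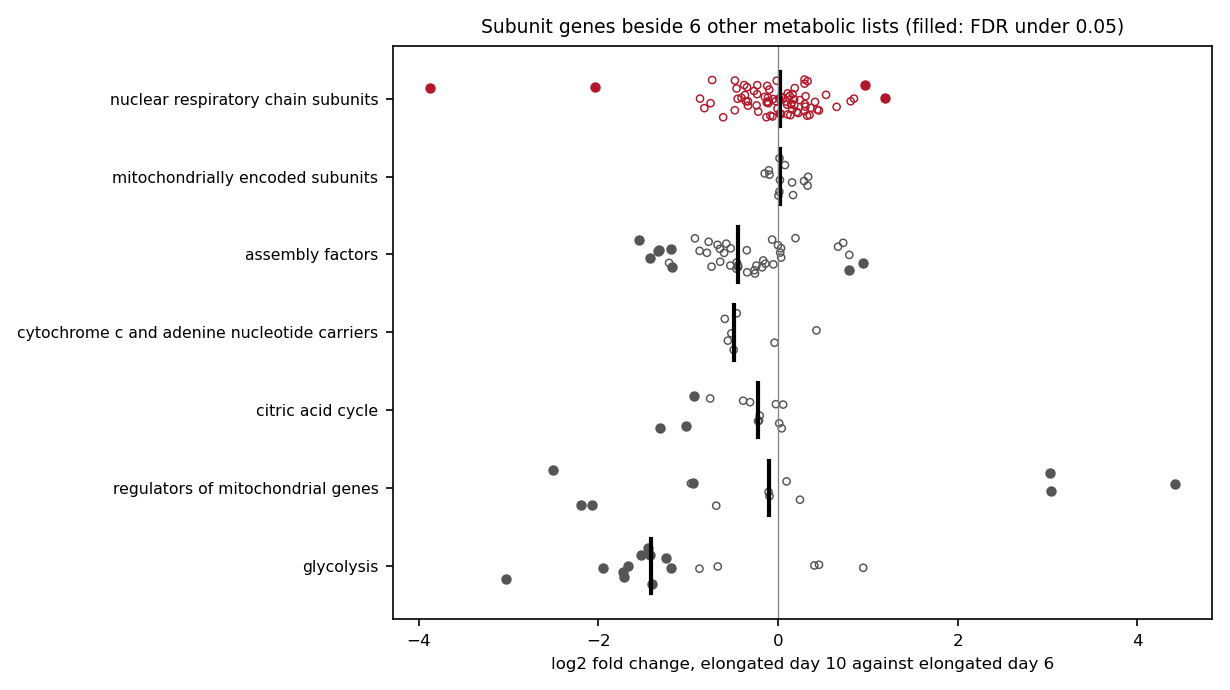
Log2 fold change of elongated day 10 against elongated day 6 (x axis) for the subunit genes and 6 other lists (down the page), 1 point a gene with at least 20 UMIs in some library; filled points had an edgeR FDR under 0.05 and black bars are medians of the points drawn. The subunit genes cluster near 0 while most glycolysis genes lie lower, around -1.42.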

How the data were processed

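UMI counts per gene and cell were deposited by the authors in 2 tables without normalisation, made with Cell Ranger 3.1 per the submitters' processing notes. The authors' metadata give UMI and gene counts per cell and the mitochondrial share in percent. The deposited class, library, barcode and symbol columns are names and carry no unit (other). The day 6 table names its libraries by initials, read here as non-elongated and elongated. Column sums matched the metadata in every cell. Pairs of libraries shared 1 to 4 cell barcodes. No doublet caller was run. How the authors filtered cells, treated doublets and named classes is not given in the sources used here.

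UMIs were summed over the cells of each library for the 17296 shared symbols and tested in R 4.3.3 with edgeR 4.0.16: 5 group means, scaling by TMM, genes kept by filterByExpr at 10 counts or more, quasi-likelihood test, Benjamini-Hochberg adjustment and a threshold of 0.05. This fit has 1 residual degree of freedom, from the elongated day 6 replicates, so single libraries are taken to have the spread of that pair. All 79 members passed the filter. Each SE was obtained by dividing the absolute log2 change by the root of F. Differences from each replicate use log2 CPM with a prior count of 2. DESeq2 1.42.0, other scalings, filters, cell subsets and each day 6 replicate left out were the alternatives. The edgeR fit was run on simulated counts with known changes at day 10. These were drawn with the same spread setting for every gene and with no batch or table difference. That run checks the code and not how well the test works on these data. Gene positions are from GENCODE on GRCm38.

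The members and lists were chosen with earlier results of these data known. By rule the text names every form of the paired subunits, the most abundant member of each complex, the highest and lowest of each complex with at least 20 CPM, and every called member. Nothing in the labels says that the day 6 replicates came from separate cultures, so p-values measure only the spread between these samples.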

Additional observations from a re-analysis of the deposited data

Results flagged for a closer look

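Some symbols match the naming rule in 1 table only and so are not members, yet their genes carried UMIs. Among them, Ndufb1-ps would be left out in any case, by the -ps in its symbol. In the larger table, Atp5o measured 526 CPM, Atp5md 509 CPM, Atp5mpl 448 CPM and Ndufb1-ps 285 CPM at day 10, as shares of all UMIs without TMM factors. In the day 6 table, Atp5o.1 measured 412 CPM in the non-elongated library and Atp5s 4.48 CPM in elongated replicate 1. They stand out because no comparison uses them. RefSeq synonyms pair Atp5md with Usmg5, Atp5mpl with 2010107E04Rik and Atp5s with Dmac2l across the tables, so the tables name the same genes differently.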

How the results depend on the processing

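Of 198 summary values recomputed, 169 stayed within the limits set for them. Of 203 values for single genes, 186 were rated the same and 0 changed sign. Where a group comparison left out a day 6 replicate, only the sign was rated, since no spread remained for a test. The other values were rated by their side of the threshold. No gene passed the test for non-elongated over elongated with TMM, but 21 did with RLE scaling and 129 with DESeq2. At day 7, 654 genes became 380 with a minimum count of 100, 395 in neural progenitors and 206 in cells within the range of the smaller table. At day 10, 4320 became 2698 in neural progenitors. The slope called 6008 genes with DESeq2, and between 0 and 1723 with a replicate left out, or 0 in neural progenitors without replicate 1 (added after seeing the data).

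Library size alone moved the members' median to 0.0436 at day 7, 0.19 at day 8, 0.27 at day 10 and 0.0753 per day for the slope. All genes then split 2991 higher and 1382 lower at day 10, against 2302 and 2018 with TMM, and 2452 and 1318 for the slope, against 1784 and 1965. Members called higher became 4 at day 10 and 8 for the slope with library size alone, and 1 at day 8 and 4 for the slope with DESeq2. With DESeq2, 6 were lower at day 10 and 5 for the slope. In the range of the smaller table, 1 was higher at day 10 and 2 lower for the slope, and with library size alone 0 were lower for the slope. With a replicate left out, members called by the slope ranged from 0 to 0 higher and from 0 to 1 lower. The causes were not tested. Without mitochondrially encoded genes the day 10 share was 3.44%. No paired analysis was possible because only elongated day 6 has more than 1 replicate. Groups of 1 library and 1 residual degree of freedom limit every test, and levels under 1 CPM rest on few UMIs.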

Other observations

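Length and fold change were set beside each other after the values had been seen. Over 74 members with at least 20 CPM, Spearman's rho between the longest coding transcript and the log2 fold change at day 10 was -0.36, with a median of 0.14 for the shorter members and -0.09 for the longer ones. Over 5476 genes at that level rho was 0.27. Both are across genes of the same libraries, which are not independent, and no p is given.

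Cell by cell, the lower and upper quartiles of the members' share of UMIs were 2.54% and 2.83% in non-elongated organoids. Those of elongated replicate 1 were 2.34% and 2.64%, and those of day 10 were 2.95% and 3.58%. The SD over cells was 0.248 and 0.228 percentage points in non-elongated organoids and replicate 1, where counting alone would give about 0.0930 and 0.0853. It was larger in the other libraries: 0.302 in replicate 2, 0.314 at day 7, 0.367 at day 8 and 0.479 at day 10. Counting alone would give about 0.0700, 0.0779, 0.102 and 0.123 there.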
